A study of Danio rerio with 4 samples.

Results

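miR-7 and miR-375, microRNAs (miRNAs) known from hormone-secreting cells, were followed in whole zebrafish larvae exposed to 2,2′,4,4′-tetrabromodiphenyl ether (BDE47), a brominated flame retardant. They were taken as every row of the deposited miRNA table named miR-7 or miR-375, with any letter and any arm. This gave 3 of the 245 listed zebrafish miRNAs, namely miR-7a, miR-7b and miR-375. None of the 3 rows names an arm of the hairpin, and no other row of either family was listed. All 3 passed the filter applied to the table, a mean of at least 10 normalized read counts over the libraries, as did 234 miRNAs in all. let-7 is a different family and was not included.

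Larvae of the wild-type Tuebingen strain were sampled whole at 6 days post fertilization (dpf), with 1 small RNA library for each of 4 conditions. A blank control (titled wild type, with no agent named) and a vehicle control given the solvent DMSO stood beside BDE47 in DMSO at a low concentration of 5 μg/L and a high concentration of 500 μg/L. Per the study's methods, exposure began in gastrula embryos and lasted until sampling, and RNA came from a pool of larvae. Whether the blank control received DMSO is not given in the sources used here. With 1 library per condition no difference has a replicate check, so every value describes these libraries, and the 95% intervals below cover counting error only.

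miRNAs are short RNAs that guide Argonaute proteins to partly complementary messenger RNAs and lower their translation or stability. miR-375 is a characteristic miRNA of the pancreatic islet. In mouse beta cells it restrains insulin secretion, and in zebrafish it marks the islet and the pituitary and is needed for an intact islet. miR-7 is shared by insects and vertebrates. It is found in islet endocrine cells and in neurosecretory cells of the brain, and in mouse it targets the islet and eye transcription factor Pax6. A whole larva mixes these small cell populations with every other tissue, so fewer cells of a type and less RNA per cell cannot be told apart.

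The libraries held between 8858169 and 10357704 listed reads. The deposited values were whole multiples of 1 number per library (100% of values within 0.01 of a whole read), and that number was 1 over the median-of-ratios size factor, so the reads behind each value were read back. This recovery rests on the values alone, with only 10 to 15 miRNAs per library at 1 to 20 reads, and all intervals and read tests depend on it. Tissue-linked miRNAs of muscle, liver, nervous system, red blood cells, exocrine pancreas and skin were all present, with 20 of 20 rows above 0 in all 4 libraries. Presence alone says little here, as between 239 and 244 of the 245 listed miRNAs had a read in each library. The islet and neurosecretory miRNAs made up a small part of each library. miR-375 took between 0.0352% and 0.0416% of listed reads and ranked between 102 and 112 among the 234 miRNAs. miR-7a and miR-7b together took between 0.0121% and 0.0197%, and each ranked between 169 and 181.

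The 3 rows stand for 6 genes in the RefSeq annotation of the GRCz12tu assembly, which was used for names and neighbours only. miR-7a has 3 genes (mir7a-1, mir7a-2 and mir7a-3), miR-7b has 1 and miR-375 has 2. A read of miR-7a or miR-375 therefore cannot be traced to 1 gene. The miR-7b gene overlaps LOC141385623 and hnrpkl, a gene of the hnRNP K family of RNA-binding proteins. In mammals a mir-7 gene likewise lies within the hnRNP K gene. mir7a-1 overlaps LOC141380912 and det1 (a ubiquitin ligase component), while mir7a-2 and mir7a-3 overlap no annotated gene. Of the miR-375 genes, dre-mir-375-1 overlaps tmem198ab and LOC137495835, and dre-mir-375-2 overlaps LOC137496453. Each has a lens crystallin gene as a neighbour, cryba2a and cryba2b in that order. No other miRNA gene lies within 10 kb of any of the 6. The mature miR-7a and miR-7b are near-identical, so the mapping could divide reads between their rows, and how such reads were counted is not given in the sources used here.

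miR-7a was the member that differed most between libraries. The blank control library held 759 normalized counts of it, the vehicle control 1093, the low concentration 661 and the high concentration 626, from 708, 1193, 677 and 593 reads. The vehicle control stood above the other 3 libraries, and its counting interval of 1032 to 1157 did not overlap theirs, of which the highest bound was 817. Against the vehicle control, miR-7a was 1.75-fold lower at the high concentration (95% counting interval 1.58 to 1.93) and 1.65-fold lower at the low concentration (1.503 to 1.82). The blank control, without BDE47, was itself 1.44-fold below the vehicle control (1.31 to 1.58). Set against the blank control instead, miR-7a was 1.21-fold lower at the high concentration (1.09 to 1.36) and 1.15-fold lower at the low concentration (1.03 to 1.28). The BDE47 libraries themselves did not differ beyond counting error, with the high concentration at 0.946 of the low (0.846 to 1.06).

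miR-7b, the paralog, moved over a narrower range. The blank control held 680 normalized counts, the vehicle control 738, the low concentration 640 and the high concentration 558, from 634, 805, 655 and 529 reads. The order of the libraries was the same as for miR-7a, but neighbours in it lay close together. The vehicle and blank controls did not differ beyond counting error (blank at 0.922 of vehicle, 0.829 to 1.02), nor, on the deposited scaling, did the blank control and the low concentration (0.941, 0.842 to 1.05). As shares of listed reads, the latter pair did differ by Fisher's exact test (adjusted p = 0.0389). miR-7b was 1.32-fold lower at the high concentration than in the vehicle control (1.18 to 1.48) and 1.22-fold lower than in the blank control (1.08 to 1.37). At 5 μg/L it was 1.15-fold below the vehicle control (1.04 to 1.28). The library at the high concentration was also below that at the low concentration, at 0.873 of it (0.777 to 0.980), a step that Fisher's exact test on shares of listed reads did not call (adjusted p = 0.103).

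miR-375, the islet miRNA, was at nearly the same level in 3 of the 4 libraries. The blank control held 3347 normalized counts, the vehicle control 3872, the low concentration 4045 and the high concentration 4018, from 3121, 4225, 4141 and 3807 reads. Here the blank control was the library that stood apart, below the others, with an interval of 3230 to 3466 against a lowest bound of 3756 elsewhere. Relative to the vehicle control, miR-375 was at 1.04 times at the high concentration (0.993 to 1.08) and at 1.04 times at the low concentration (1.0007 to 1.09). Relative to the blank control, it was at 1.20 times at the high concentration (1.14 to 1.26) and at 1.21 times at the low concentration (1.15 to 1.27). The blank control was 1.16-fold below the vehicle control (1.10 to 1.21), a larger step than any among the vehicle control and the BDE47 libraries. The sign against the vehicle control depended on the scaling. As a share of all listed reads, miR-375 stood at 0.0352% (blank), 0.0416% (vehicle), 0.0400% (low) and 0.0410% (high), so that both BDE47 libraries then lay just under the vehicle control.

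**Figure D1:**
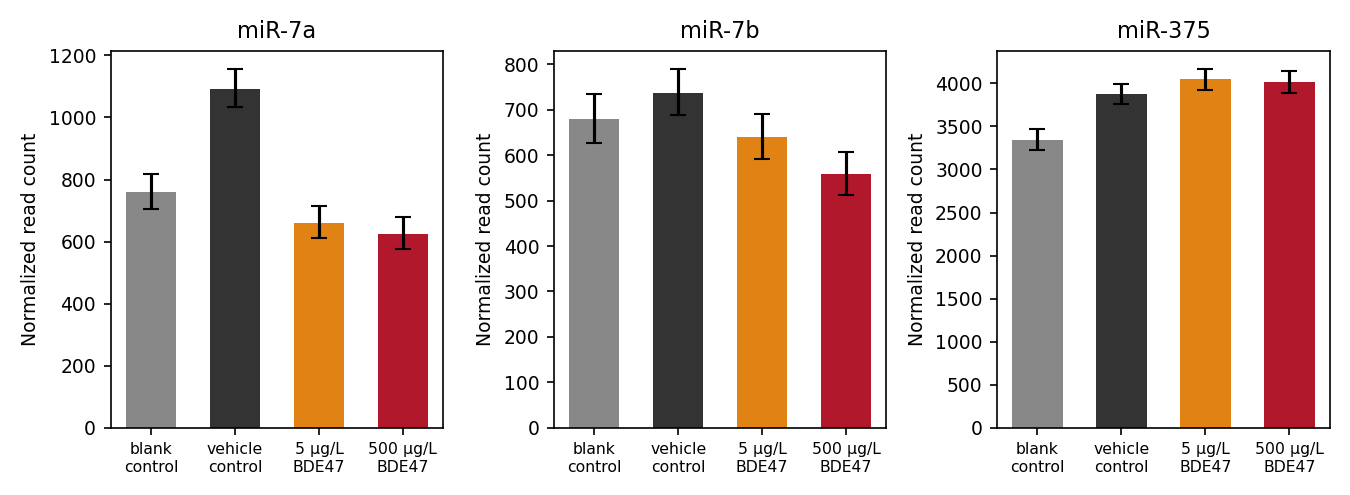
Normalized read counts (y axis, from 0) of miR-7a, miR-7b and miR-375 in each of the 4 libraries (x axis, 1 library per condition); bars are the values and error bars are exact 95% counting intervals. miR-7a is highest in the vehicle control at 1093, miR-7b declines from 738 in the vehicle control to 558 at the high concentration, and miR-375 is lowest in the blank control at 3347.

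Set among all 234 miRNAs, no member passed the 2-fold criterion in any comparison. At 500 μg/L against the vehicle control, 0 of 3 members differed more than 2-fold, where 8.97% of all miRNAs did. At 5 μg/L it was 0 of 3 against 2.99%, and in the blank control 0 of 3 against 1.28%. Against the blank control, 0.855% of all miRNAs passed 2-fold at the high concentration and 0% at the low concentration. Between the BDE47 libraries 1.71% did. With so few miRNAs passing in these pairs, 0 of 3 says little about the members. With a fold of 1.5, miR-7a alone passed at the high concentration (20.9% of all miRNAs) and at the low concentration (15.4%), and no member did in the blank control (13.2%). The difference of miR-7a from the vehicle control, with a log2 ratio of -0.80 at the high concentration and -0.72 at the low concentration, was larger than that of 85.9% and 91.0% of the miRNAs, and 27 and 19 miRNAs had lower ratios. In the blank control its log2 ratio of -0.53 was larger in size than that of 84.2%. miR-7b had log2 ratios of -0.40 at the high concentration and -0.21 at the low concentration, with 56 and 65 miRNAs lower. miR-375, at 0.05 and 0.06, lay near the median ratio of all miRNAs, which was 0.02 at both concentrations.

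**Figure D2:**
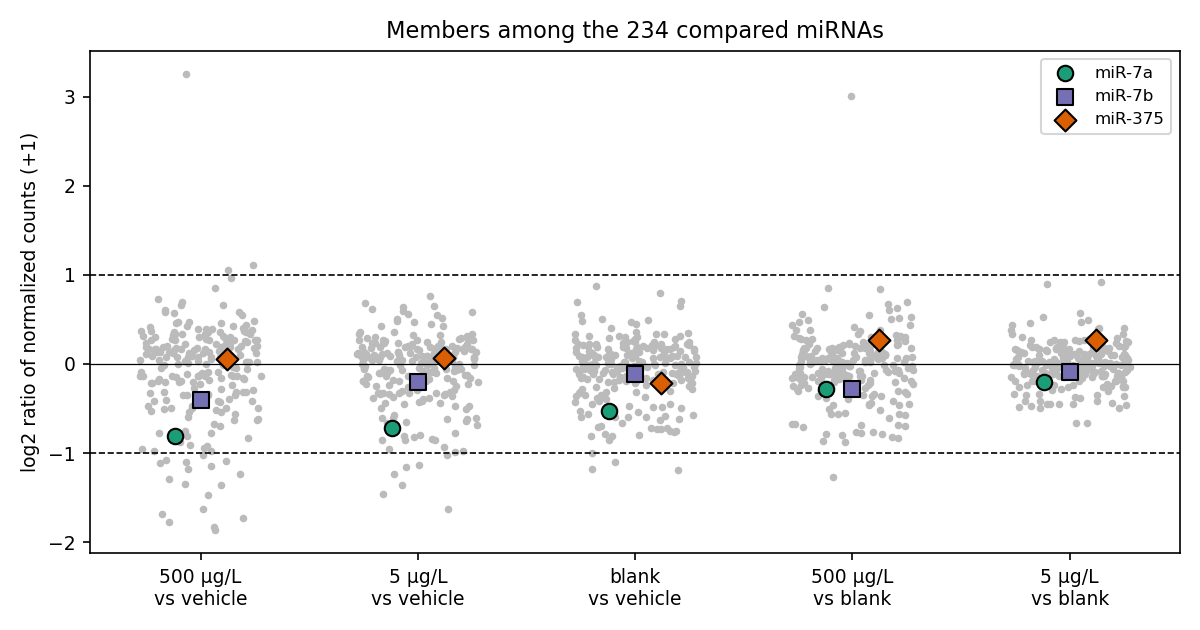
Log2 ratio of normalized counts after adding 1 (y axis) for 5 pairs of libraries (x axis); grey points are the other miRNAs of the 234, coloured symbols are miR-7a, miR-7b and miR-375, and dashed lines mark 2-fold. No member lies beyond the dashed lines; miR-7a lies at -0.80, -0.72 and -0.53 against the vehicle control and at -0.28 and -0.20 against the blank control.

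The reads of each pair of libraries were also set against each other by Fisher's exact test (two-sided), which compares shares of listed reads between libraries, not conditions, and separated most miRNAs at this depth. With Benjamini-Hochberg adjustment over the 234 miRNAs, miR-7a and miR-7b were under 0.05 at the high concentration against the vehicle control, where 79.1% of all miRNAs were. Both were also under it at the low concentration (68.8% of all miRNAs), and miR-375 was not under it at either concentration. Between the control libraries, miR-7a and miR-375 were under 0.05, as were 72.6% of all miRNAs. Against the blank control, 3 of 3 members were under 0.05 at the high concentration (70.1% of all miRNAs) and at the low concentration (71.4%), the miR-7 rows being lower with BDE47 and miR-375 higher. Between the BDE47 libraries, 0 of the 3 members were (69.7%).

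Taken over the 4 libraries, both miR-7 rows were lower with BDE47 than in either control, while miR-375 was higher on the deposited scaling but not as a share of listed reads. Such separation was frequent across the table. Both BDE47 libraries lay below both controls for 2 of 3 members and for 21.8% of all miRNAs, and above both for 1 of 3 members and for 23.9%. For miR-375 the step from the vehicle control to the high concentration was within counting error. Its step to the low concentration lay just beyond counting error on the deposited scaling (1.0007 to 1.09). Fisher's exact test on shares of listed reads did not call that step (adjusted p = 0.0927). For miR-7b the step from the blank control to the low concentration was within counting error on the deposited scaling, but not as a share of listed reads. The vehicle control was the highest library for both miR-7 rows, as it was for 35.9% of all miRNAs, and the blank control was the lowest for miR-375, as it was for 17.1%. The coefficient of variation over the libraries was 27.2% for miR-7a, 11.5% for miR-7b and 8.50% for miR-375, beside a median of 11.3% over the 234 miRNAs.

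Ratios within a library do not depend on its scaling, and they set the families against each other. There were 0.430 miR-7 reads for each miR-375 read in the blank control (95% counting interval 0.403 to 0.459) and 0.473 in the vehicle control (0.448 to 0.499). At 5 μg/L the ratio was 0.322 (0.302 to 0.342) and at the high concentration it was 0.295 (0.275 to 0.315). The BDE47 libraries lay below both controls with no overlap of the intervals. The intervals of the controls overlapped each other, which does not show that their ratios were equal. miR-7a alone gave 0.227, 0.282, 0.163 and 0.156 reads per miR-375 read in the same order, and miR-7b gave 0.203, 0.191, 0.158 and 0.139. Of the 233 miRNAs other than miR-375, 43.3% had fewer reads per miR-375 read in both BDE47 libraries than in both controls, so the ordering was common with miR-375 as the reference. No length correction was applied, and read lengths were not examined. Ligation captures different miRNAs unequally, so the ratio compares libraries and does not count molecules.

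Within the miR-7 family, the vehicle control again differed from the rest. miR-7a made up 59.7% of miR-7 reads in the vehicle control (exact Clopper-Pearson 95% interval 57.5 to 61.9%). It made up 52.8% in the blank control (50.05 to 55.5%), 50.8% at the low concentration (48.1 to 53.5%) and 52.9% at the high concentration (49.9 to 55.8%). The last 3 intervals overlapped each other and none reached that of the vehicle control. The lower miR-7a in the other libraries was therefore accompanied by a change in the split of miR-7 reads between the rows, and the part of multiply mapping reads in it was not tested. Summed over both rows, miR-7 had 1439 (blank), 1831 (vehicle), 1301 (low) and 1184 (high) normalized counts. The sum at the high concentration was 1.55-fold below the vehicle control (1.44 to 1.66) and 1.22-fold below the blank control (1.12 to 1.32). At 5 μg/L it was 1.41-fold (1.31 to 1.51) and 1.11-fold (1.02 to 1.19) below them.

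**Figure D3:**
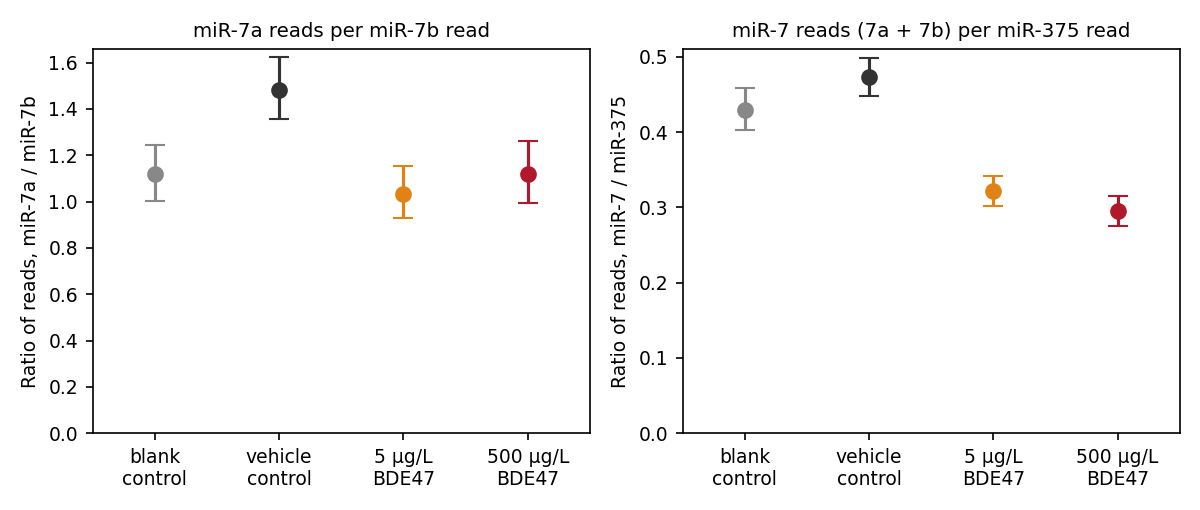
Ratios of reads within each library (y axes, from 0), miR-7a to miR-7b on the left and summed miR-7 to miR-375 on the right, for the 4 libraries (x axes), with exact 95% counting intervals. The left ratio is 1.48 in the vehicle control and between 1.03 and 1.12 elsewhere; the right ratio is 0.430 and 0.473 in the controls and 0.322 and 0.295 with BDE47.

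The miRNAs whose pattern over the 4 libraries was most like that of each member were found from log2 values centred on each miRNA's own mean, by the root mean square difference. Because they were chosen from these same values, their sharing of a member's highest or lowest library follows from the choice. For miR-7a they were miR-190b (0.09 on the log2 scale), miR-34a (0.09) and miR-153a (0.11), beside a median of 0.35 over all miRNAs. miR-153a belongs to a neuronal family and miR-34a to a family induced by p53 in mammals. All 3 shared the peak in the vehicle control, as miR-190b shows with 9411 (blank), 16005 (vehicle), 8956 (low) and 8469 (high) normalized counts. For miR-7b the nearest were miR-460-3p (0.02), miR-148 (0.04) and miR-15a-5p (0.05), with a median of 0.22, and all 3 were lowest at the high concentration. For miR-375 they were miR-99 (0.04), miR-429a (0.04) and miR-125a (0.05), with a median of 0.18. miR-429a is a member of the epithelial miR-200 family, and all 3 were lowest in the blank control. No member was among the 3 nearest of another. In the list of miR-7a, miR-7b was in place 36 at a distance of 0.20, nearer than the median of 0.35. miR-375 was in place 117 at 0.35, which is that median. In the list of miR-7b, miR-7a was only in place 95 at 0.20, close to the median of 0.22.

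**Figure D4:**
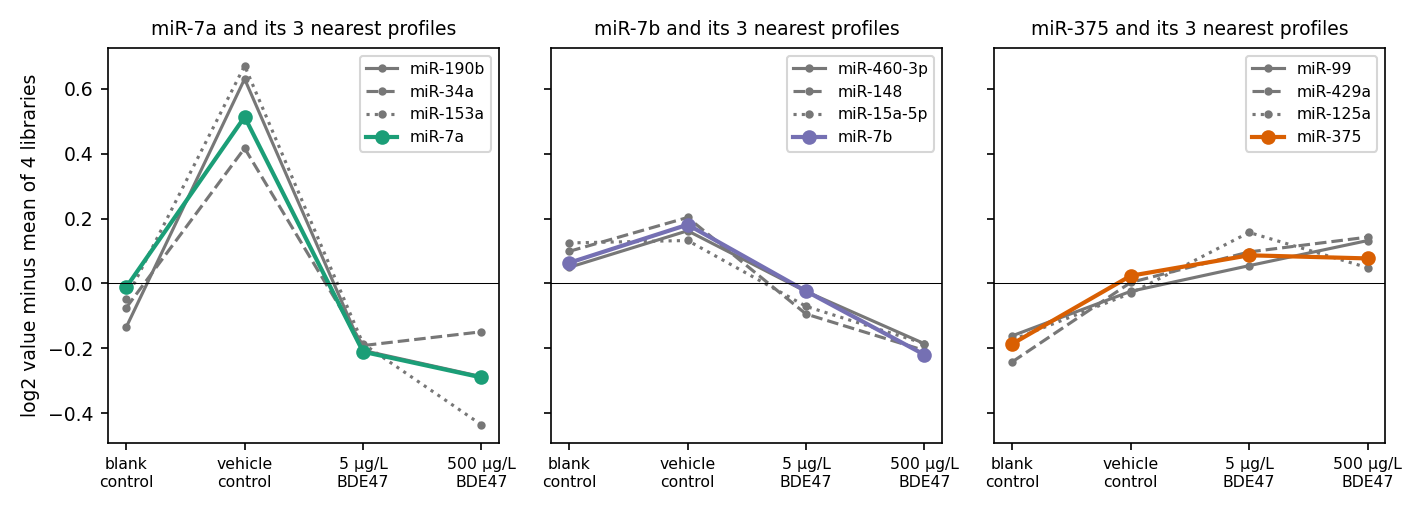
Log2 value of each member (coloured) and of the 3 miRNAs with the nearest profiles (grey), each minus its mean over the 4 libraries (y axis), in the 4 libraries (x axis). miR-7a and its neighbours peak in the vehicle control, miR-7b and its neighbours are lowest at the high concentration, and miR-375 and its neighbours are lowest in the blank control. The neighbours were chosen for this likeness.

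Other miRNAs studied in mammalian islets (miR-9, miR-26, miR-29, miR-30, miR-96, miR-124, miR-148, miR-184, miR-200 and miR-204) gave 20 rows, all of which passed the filter. Against the vehicle control, their median log2 ratio was 0.06 at the high and -0.05 at the low concentration, beside 0.02 over all miRNAs at each. At 500 μg/L, 1 of 20 was more than 2-fold lower and 0 were more than 2-fold higher, which is no larger a share than the 8.97% of all miRNAs beyond 2-fold. The lower one was miR-30e-5p. The blank control held 76063 normalized counts of it, the vehicle control 114119, the low concentration 59753 and the high concentration 44923. Its family member miR-30d, which raises insulin transcription in mouse islet cells, was instead higher, at 0.19 at the high and 0.30 at the low concentration. The rows miR-30a, miR-30b, miR-30c and miR-30e-3p were also higher than in the vehicle control at the high concentration, between 0.05 and 0.28. At the other end was miR-204, a repressor of insulin transcription through MafA in rodents and also abundant in the eye, with 56241, 51054, 62699 and 74720 normalized counts in that order and a log2 ratio of 0.55 at the high concentration. miR-30a lay in the middle at 0.05. Of the 20 rows, 2 had a lower ratio than miR-7a, namely miR-30e-5p and miR-124, a neuronal miRNA. miR-375, at 0.05, was close to their median.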

How the data were processed

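The authors made small RNA libraries from pooled larvae, removed reads that were short, of low quality or adaptor, and aligned the rest to zebrafish miRNAs of miRBase v21.0. The deposited values are a normalized signal: each library's counts had been divided by a size factor. The factors found from the values, 0.933, 1.09, 1.02 and 0.947 (blank, vehicle, low and high concentration), equalled the median-of-ratios factors of the reads. Such scaling takes most miRNAs as unchanged.

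Each value column was matched to its sample by its label. Log2 ratios were computed after adding 1, and miRNAs averaging under 10 normalized counts were left out. Intervals are exact (Clopper-Pearson for shares and ratios, Poisson for levels), at 95%, and like the printed folds were computed without the pseudocount. They leave out all but the counting error of reads, because each condition had 1 library. PCR copies of a molecule are counted as separate reads, so the intervals may also be too narrow for molecules. Calls used a fold of 2 or Fisher's exact test on the reads. The study set the same fold together with limits on the p-value and false discovery rate, which were not applied here. The test in EBSeq, RT-PCR, mRNA and predicted miRNAs were not used here. Mature sequences were not used here.

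The members and lists were chosen with earlier results of these data known. The text names every member, the 3 nearest profiles of each, and the lowest, middle and highest row of each list at the high concentration. Rows miR-30b, miR-30c, miR-30d and miR-30e-3p, outside this rule, were also named after the values were seen. Row miR-124, the miR-459 rows, the ordering of BDE47 libraries against both controls and the paralog pairs were chosen after the values were seen. The code was tested on simulated data. Alternatives were pseudocounts of 0.1 and 10, no filter or a mean of at least 100, scaling to listed reads or by median ratios over filtered miRNAs, the blank control or the controls' mean as control, a fold of 1.5, Fisher's test, and miR-7a alone. Calculations were run in Python 3.11.15 with scipy 1.17.1, pandas 2.3.3 and numpy 2.4.6, and plots were drawn with matplotlib 3.10.9.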

Additional observations from a re-analysis of the deposited data

How the results depend on the processing

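No member passed 2-fold under any pseudocount, filter, scaling or choice of control. A fold of 1.5 gave 1 of 3 members at the high concentration (20.9% of all miRNAs) and 1 of 3 at the low concentration (15.4%). Fisher's exact test on the reads gave 2 of 3 members at the high concentration, where 79.1% of all miRNAs were called. It also gave 2 of 3 at the low concentration (68.8% of all miRNAs) and 2 of 3 in the blank control (72.6%). The log2 ratio of summed miR-7 at the high concentration, -0.63, was -0.28 against the blank control and -0.47 against the mean of both controls, and that of miR-7a alone was -0.80. At the low concentration, -0.49 went to -0.15, -0.33 and -0.72 in the same order, and to -0.61 with scaling to listed reads. That scaling moved the median of all miRNAs by -0.12 at the low concentration and -0.08 at the high concentration, and turned the log2 ratio of miR-375 from 0.063 to -0.058 and from 0.054 to -0.023. Against the blank control, miR-375 had log2 ratios of 0.27 at the low concentration and 0.26 at the high concentration, and against the mean of both controls 0.16 and 0.15. The blank control's own level, lower than the vehicle control's for summed miR-7 and miR-375, sets the shifts with a change of control. Of 118 alternative values, 96 stayed within counting error of the reported one or at the same count. The other 22 moved, 2 of them with a change of sign. The pseudocounts, filters and median-ratio scaling moved no value and could hardly do so. Every member averaged at least 654 normalized counts, above both filters, and that scaling had a shift of 0 from the deposited one. The count of 96 therefore says little about stability. All values that moved came from the remaining alternatives. No paired analysis was possible because each condition had 1 library. Between 529 and 1193 reads lay behind each miR-7 value. For miR-7b, the step from the blank control to the low concentration (0.941, 0.842 to 1.05) was within counting error on the deposited scaling and was called by Fisher's exact test on shares of listed reads (adjusted p = 0.0389).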

Other observations

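The exocrine pancreas, the digestive part of the organ that holds the islet, is marked by miR-216 and miR-217. All 3 of their rows were lower than in the vehicle control at the high BDE47 concentration, with a median log2 ratio of -0.27 beside 0.02 over all miRNAs, of which 113 of 234 were lower. All 3 were also lower at the low concentration (median -0.17) and in the blank control (median -0.09). Over all miRNAs, 113 of 234 were lower at the low concentration (median 0.02) and 131 in the blank control (median -0.03). miR-216a had 1474 (blank), 2231 (vehicle), 1264 (low) and 1008 (high) normalized counts, and its log2 ratio of -1.15 at the high concentration passed 2-fold. miR-216b (-0.22) and miR-217 (-0.27) did not. As with miR-7a, miR-216a was highest in the vehicle control, and its log2 ratio in the blank control was -0.60. Intestine and liver miRNAs (miR-122, miR-192 and miR-194) gave 4 rows. Their median log2 ratio was -0.37 at the high and 0.13 at the low concentration, beside 0.02 over all miRNAs at each. In the blank control their median was 0.12, with 3 of 4 rows higher, beside -0.03 and 103 of 234 over all miRNAs. Of the 4 rows, 0 were beyond 2-fold at the high concentration (8.97% of all miRNAs) or at the low concentration (2.99%). The list held miR-192 at -0.50, miR-194b at -0.39 and miR-122, the liver miRNA, at 0.00 at the high concentration. The list did not hold miR-459, also linked to liver and gut. Against the vehicle control, miR-459-5p was at -1.87 at the high concentration, beyond 2-fold and the lowest ratio of all 234 miRNAs. It was at -0.86 at the low concentration and at -0.60 in the blank control. The miR-459-3p row was at -0.54, 0.23 and -0.26 in the same order.

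The gap between miR-7a and miR-7b can be set beside other pairs of lettered paralogs. The log2 ratio of miR-7a to the vehicle control, minus that of miR-7b, was -0.40 in the high, -0.52 in the low concentration library and -0.41 in the blank control. Over 123 such pairs of rows with the same number and arm, the median size of the gap was 0.31, 0.20 and 0.23, and 43, 15 and 27 pairs lay farther apart. These include every pair among the let-7 rows, whose ratios at the high concentration ran from -0.98 to 0.13. A family with many rows enters many pairs, so the pairs are not independent. How many of the farther pairs were let-7 pairs was not counted. Taken against the blank control, the difference between miR-7a and miR-7b was 0.01 at the high concentration and -0.11 at the low concentration.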
